A study of Mus musculus with 16 samples.

Results

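The genes described here are the energy-sensing kinases AMPK and mTOR and their closest partners, 10 genes measured by 24 probe sets out of 45037 on the array. They were taken by name: the catalytic alpha subunit genes Prkaa1 and Prkaa2, the scaffold beta subunit genes Prkab1 and Prkab2, the nucleotide-sensing gamma subunit genes Prkag1 and Prkag2, the upstream kinase gene Stk11, Mtor, and Tsc1 and Tsc2. A probe set was counted only where the platform annotation gives it 1 of these symbols and no other. AMPK is a trimer of an alpha, a beta and a gamma subunit that is switched on when AMP and ADP build up in a cell, after LKB1, the product of Stk11, phosphorylates the activation loop of its alpha subunit. Active AMPK slows lipid and protein synthesis and favours fuel oxidation, in part by phosphorylating TSC2 and the mTORC1 component raptor. The TSC1 and TSC2 proteins form a complex that holds back mTOR, the kinase that drives protein synthesis and growth and, in the hippocampus, lasting synaptic change.

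Hippocampal total RNA was hybridised to 16 Affymetrix mouse arrays, 1 per animal, from 8 animals fed pioglitazone (PIO) and 8 fed a control diet. All were female 3xTG-AD mice aged 14 months, a line with mutant human APP and tau transgenes and a mutant presenilin gene that models Alzheimer's disease, so the controls carry the same alleles and no non-transgenic animal was analysed here. PIO, a thiazolidinedione that activates the nuclear receptor PPAR gamma, was mixed into the diet at 84 ppm, a daily dose of about 18 mg per kg of body weight, from 10 months of age for about 14 weeks. Thiazolidinediones are also known to raise AMPK activity in several tissues. The comparison asks whether the RNA of these kinases differed between diets. RNA level says nothing of phosphorylation, on which the activity of each of these kinases depends.

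Values are the deposited log2 expression per probe set. Array medians lay between 5.65 and 5.76. All 9 listed markers of hippocampal neurons were above the low-value filter, with array means of 10.66 to 11.43. Relative to the mean of all arrays, 6 striatal markers were at 0.87 and 1.02 in PIO animals 14 and 15, against -0.23 to 0.03 in the other PIO animals and -0.39 to 0.30 in controls. The hippocampal marker mean was lowest in the same animals, at -0.51 and -0.48, and their myelin marker means were -0.33 and -0.58. All 6 striatal markers were higher in PIO animals, and 7 of the 9 hippocampal markers were lower. Choroid plexus markers gave the largest shift of the marker lists, with 9 of 9 higher in PIO animals, a median difference of 1.16 and 0 at an unadjusted limma p under 0.05. Their array means averaged 0.62 ± 2.26 in PIO animals and -0.62 ± 2.63 in controls (SD, n = 8 each), with ranges of -3.58 to 2.64 and -3.21 to 2.44. These means fell apart into separate sets. They lay between -3.58 and -2.21 in PIO animals 9 and 13 and control animals 1, 4, 5 and 7. In all other animals of both diets they lay between 0.54 and 2.64. Glial markers leaned one way: 13 of 13 myelin, 13 of 13 microglial and 10 of 10 astrocyte markers were lower in PIO animals, of which 6, 4 and 3 had an unadjusted limma p under 0.05 and 0 an adjusted one. Of all genes 47.3% were lower, and 3.15% were lower at that unadjusted p. Microglial means ran from -0.32 to 0.25 in PIO animals and from -0.24 to 0.52 in controls, and astrocyte means from -0.25 to 0.061 and from -0.063 to 0.17. The lowest astrocyte means, -0.25 and -0.20, were those of PIO animals 15 and 14, and the other PIO animals lay between -0.070 and 0.061. All 7 thalamic markers measured were higher, with 0.91 in PIO animal 16, while 4 of 8 pan-neuronal and 2 of 6 endothelial markers were higher. The part of these shifts in the values below was not tested beyond the marker covariates given. In tissue RNA of this kind, fewer cells of a type and less RNA per cell cannot be told apart.

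None of the 10 genes differed between diets past the threshold, which was a Benjamini-Hochberg p of 0.05 from limma over 12266 genes and which 0 genes (0%) passed in all. At an unadjusted p under 0.05 there were likewise 0 of the 10, against 859 of all genes, or 7%. For each gene the probe set with the highest mean was taken. The differences, PIO minus control, lay between -0.064 and 0.077 log2 units, with 4 genes higher and 6 lower, where 47.3% of all genes were lower. The diets did not overlap for 0 of the 10 genes, against 0.0326% of all genes. Their median was -0.022, against 0.0045 over all genes, and the median size of a difference was 0.048 against 0.050. In this fit the lowest fold inside any limma 95% interval was 0.846, for Prkaa2, and the highest was 1.24, for Prkaa1. Each interval holds for a single gene in this model, and the other settings given below moved some of the differences. Adjusted p from limma ran from 0.802 to 0.996.

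**Figure D1:**
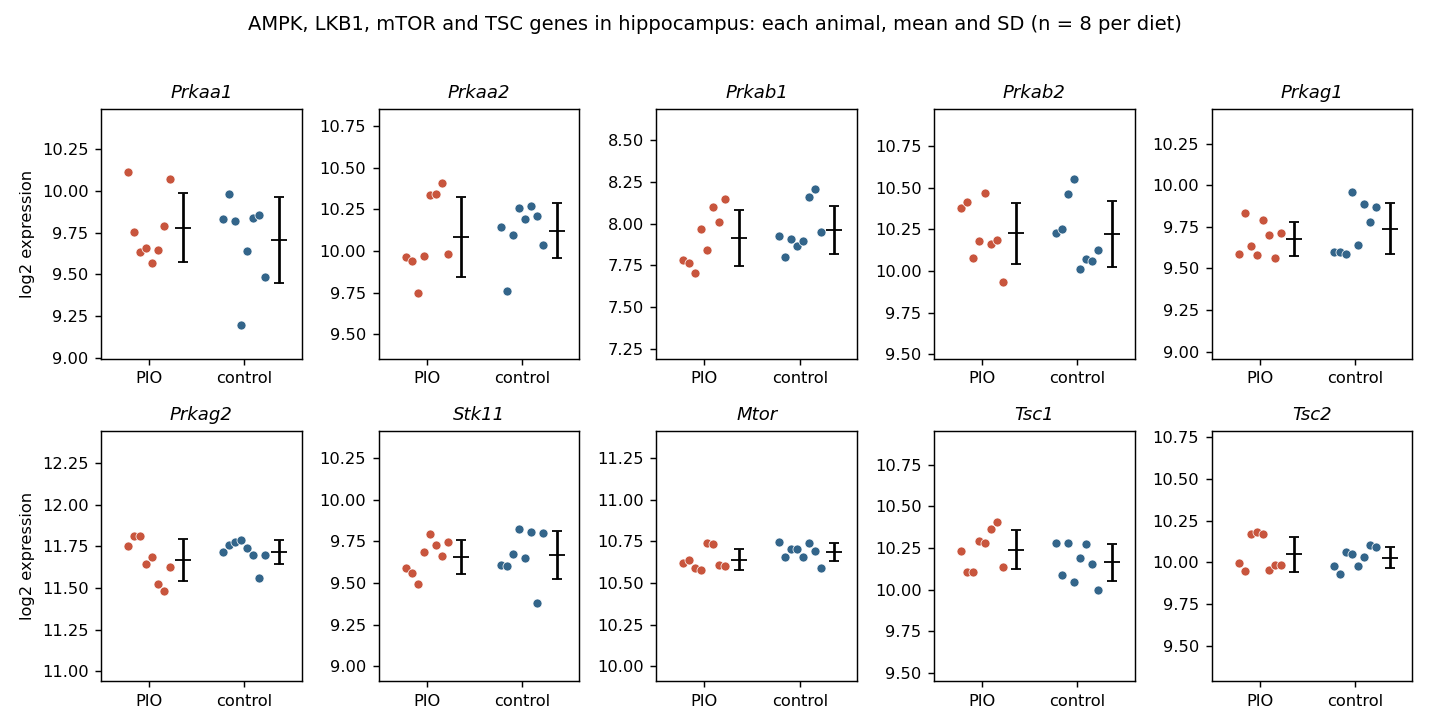
Log2 expression of the 10 genes in each animal (points), PIO left of control, with the mean and SD of 8 animals beside each group; every panel spans the same number of log2 units. The ranges of the diets overlap in each of the 10 panels, and Mtor has the tightest points, with SDs of 0.063 in PIO animals and 0.052 in controls.

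The alpha subunits carry the kinase domain, and Prkaa1 varied most between animals. Prkaa1 (probe set 1437539_at) ran from 9.57 through a median of 9.71 to 10.12 in PIO animals, against 9.20, 9.83 and 9.98 in controls. The groups overlapped, with PIO animals 9 and 16 above the highest control and control animal 4, at 9.20, well below the others. The means were 9.78 ± 0.21 and 9.71 ± 0.26 (SD, n = 8 each), a limma difference of 0.074 (SE 0.11, adjusted p = 0.909). Without control animal 4 that difference was 0.00096 (SE 0.093), and in the largest array batch alone it was -0.093 (SE 0.097). Array batch here is a code in the array descriptions that the labels do not define.

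Prkaa2 encodes the alpha 2 subunit, an abundant form in neurons and muscle. Its main probe set, 1429463_at, ran from 9.75 through 9.98 to 10.41 in PIO animals, against 9.76, 10.17 and 10.27 in controls. PIO animals 13, 14 and 15 were above every control, while the other 5 PIO animals were at or under 9.98. The means were 10.09 ± 0.24 in PIO animals and 10.12 ± 0.17 in controls (SD, n = 8 each), a limma difference of -0.035 (SE 0.098, adjusted p = 0.961). Leaving out PIO animals 14 and 15, which had the most striatal marker signal, gave -0.13 (SE 0.090, adjusted p = 0.968). With the striatal marker mean as a covariate it was -0.12 (SE 0.095), and with the myelin marker mean -0.17 (SE 0.092). The part of tissue composition in this spread was not tested beyond these values.

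The beta subunits hold the trimer together and bind glycogen. Prkab1 (1424119_at) ran from 7.70 through 7.90 to 8.15 in PIO animals, against 7.80, 7.92 and 8.21 in controls. Its means were 7.91 ± 0.17 and 7.96 ± 0.14 (SD, n = 8 each), with a limma difference of -0.050 (SE 0.075, adjusted p = 0.911). The groups overlapped, with 3 PIO animals just below the lowest control and none above the highest. Prkab2 (1435874_at) ran from 9.93 through 10.19 to 10.47 in PIO animals, against 10.01, 10.18 and 10.55 in controls. Its limma difference of 0.0051 (SE 0.091, adjusted p = 0.996) was the smallest of the 10 genes in that fit, though its animals were not alike: the spread followed the array number, as given below. With the range of array number as a block the diet difference was 0.074 (SE 0.069), and in arrays 10 to 24 alone 0.10 (SE 0.087).

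The gamma subunits bind AMP, ADP and ATP and so sense the energy state. Prkag1 (1417690_at) ran from 9.56 through 9.67 to 9.83 in PIO animals, against 9.59, 9.71 and 9.96 in controls. Its means were 9.68 ± 0.10 and 9.74 ± 0.15 (SD, n = 8 each), a limma difference of -0.064 (SE 0.063, adjusted p = 0.868), the lowest of the 10. Controls fell into 4 animals at or under 9.64 and 4 at or above 9.78, and the PIO animals covered both. In the largest array batch alone the difference was 0.027 (SE 0.069), and in arrays 10 to 24 alone it was -0.13 (SE 0.066).

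Prkag2 (1451140_s_at) ran from 11.48 through 11.66 to 11.82 in PIO animals, against 11.56, 11.73 and 11.79 in controls. PIO animals 15 and 14 gave the lowest values of all 16 arrays, 11.48 and 11.53, and control animal 7 the next, 11.56. The means were 11.67 ± 0.12 and 11.72 ± 0.071 (SD, n = 8 each), with a limma difference of -0.049 (SE 0.052, adjusted p = 0.874). Without PIO animals 14 and 15 the difference was 0.0057 (SE 0.045), and with the striatal marker mean as a covariate 0.012 (SE 0.040). The suffix of 1451140_s_at marks a probe set of shared sequence, and with such probe sets left out the difference was -0.036 (SE 0.065).

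Promoter windows were read because PIO acts through a DNA-binding receptor. PPAR gamma pairs with RXR on direct repeats of the hexamer AGGTCA with a single base between them, and all 10 genes had RefSeq windows of 300 bases (GRCm38.p6), 250 before and 50 after a start, 12 windows in all. The full repeat AGGTCANAGGTCA, searched on both strands, was in 0 of the 12 and in 0.0396% of the 32851 mouse windows. At that share 12 windows would almost always hold none, so 0 of 12 cannot tell these genes from others. Only exact repeats inside these windows were searched. The 12 windows held 50.3% to 82% G and C, against a median of 52.7% over all windows. The shares compared here were not matched for that content. The hexamer alone, which every full repeat contains, was in 1 of the 12, or 8.33%, against 16.3% of all windows. That window belongs to Prkag2, which has 3 windows in the table, all on the minus strand of chromosome 5, and these are shown so that the start with the match can be set beside the others. The match stands on the strand opposite to the gene, so it reads as TGACCT, in capitals, beginning 43 bases before the start.
Prkag2 chr5:25100593-25100892: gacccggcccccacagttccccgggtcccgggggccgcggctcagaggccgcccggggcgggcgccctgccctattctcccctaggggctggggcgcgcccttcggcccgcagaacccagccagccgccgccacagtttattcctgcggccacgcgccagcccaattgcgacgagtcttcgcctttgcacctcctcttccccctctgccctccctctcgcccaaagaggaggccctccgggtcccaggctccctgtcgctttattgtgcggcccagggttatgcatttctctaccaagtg
Prkag2 chr5:24995704-24996003: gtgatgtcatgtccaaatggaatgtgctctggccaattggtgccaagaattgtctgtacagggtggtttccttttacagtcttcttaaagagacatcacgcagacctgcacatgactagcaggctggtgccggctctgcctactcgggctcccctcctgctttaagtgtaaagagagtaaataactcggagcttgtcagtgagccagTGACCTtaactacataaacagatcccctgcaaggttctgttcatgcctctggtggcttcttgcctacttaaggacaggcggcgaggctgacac
Prkag2 chr5:24908460-24908759: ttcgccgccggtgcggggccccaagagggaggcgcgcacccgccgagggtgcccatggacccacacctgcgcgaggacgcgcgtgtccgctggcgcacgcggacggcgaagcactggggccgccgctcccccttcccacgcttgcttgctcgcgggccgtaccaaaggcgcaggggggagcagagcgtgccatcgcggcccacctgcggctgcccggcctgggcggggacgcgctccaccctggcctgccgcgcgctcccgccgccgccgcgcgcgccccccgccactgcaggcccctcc
A match is a description of the sequence and not a binding site.

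LKB1, encoded by Stk11, is the main kinase that activates AMPK outside calcium signalling. Stk11 (1418644_a_at) ran from 9.49 through 9.67 to 9.79 in PIO animals, against 9.38, 9.66 and 9.82 in controls. Every PIO animal lay inside the control range. The means were 9.66 ± 0.10 and 9.67 ± 0.15 (SD, n = 8 each), a limma difference of -0.010 (SE 0.062, adjusted p = 0.984).

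Mtor, the kinase shared by mTORC1 and mTORC2, gave the most precise comparison. It ran from 10.58 through 10.61 to 10.74 in PIO animals, against 10.59, 10.70 and 10.75 in controls (1417592_at). The means were 10.64 ± 0.063 and 10.69 ± 0.052 (SD, n = 8 each). Its SD between animals pooled within diets, 0.058, lay at the 3.41 percentile of all tested genes, where the median gene had 0.13. The limma difference was -0.046 (SE 0.035, adjusted p = 0.802), with a 95% interval of -0.12 to 0.027, and an exact two-sided permutation test gave p = 0.129. The diet ranges overlapped, with PIO animals 13 and 14 among the high controls. The difference stayed between -0.069 and -0.026 in all 17 other settings tried. Prkab1, Prkab2 and Tsc2 also kept their signs in those settings, which refit the same animals. Prkab2 and Tsc2 came close to 0 there, at 0.00036 and 0.0022 at the least. Prkab2 also changed sign in 7 of the fits with 1 animal left out.

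The TSC complex restrains mTORC1 through the small GTPase Rheb. Tsc1 (1455252_at) ran from 10.11 through 10.26 to 10.41 in PIO animals, against 10.00, 10.17 and 10.28 in controls. Its means were 10.24 ± 0.11 and 10.16 ± 0.11 (SD, n = 8 each), a limma difference of 0.077 (SE 0.057, adjusted p = 0.802), the highest of the 10. PIO animals 15 and 14, with the most striatal marker signal, held the highest values, 10.41 and 10.36. Without them the difference was 0.030 (SE 0.056), with the striatal covariate 0.026 (SE 0.053), and with the myelin covariate -0.023 (SE 0.042). Tsc2 (1452105_a_at), which encodes the GTPase-activating subunit, ran from 9.95 through 9.99 to 10.18 in PIO animals, against 9.93, 10.04 and 10.11 in controls. PIO animals 11, 12 and 13 stood together at 10.17 to 10.18, above all controls, and the other 5 lay at or under 9.99. Its limma difference was 0.020 (SE 0.046, adjusted p = 0.948).

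All 24 probe sets were also fitted without a filter, in one limma fit over 45037 probe sets. Of the 24, 0 passed an adjusted p of 0.05 and 0 an unadjusted one, against 0% and 5.26% of all probe sets. Their differences lay between -0.070 and 0.089, with 9 higher and 15 lower, where 43% of all probe sets were lower. Diets without overlap were found for 0 of the 24, against 0.0178% of all probe sets. The filter, a mean of 3.58 log2 units over all arrays, passed 19 of them. The 5 under it were 1 of 4 for Prkag2, 1 of 2 for Stk11, 2 of 3 for Mtor and 1 of 3 for Tsc1, with means from 1.37 for 1436267_a_at of Mtor to 2.99 for 1422043_at of Tsc1. Just inside it stood 1429464_at of Prkaa2 at 4.56.

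**Figure D2:**
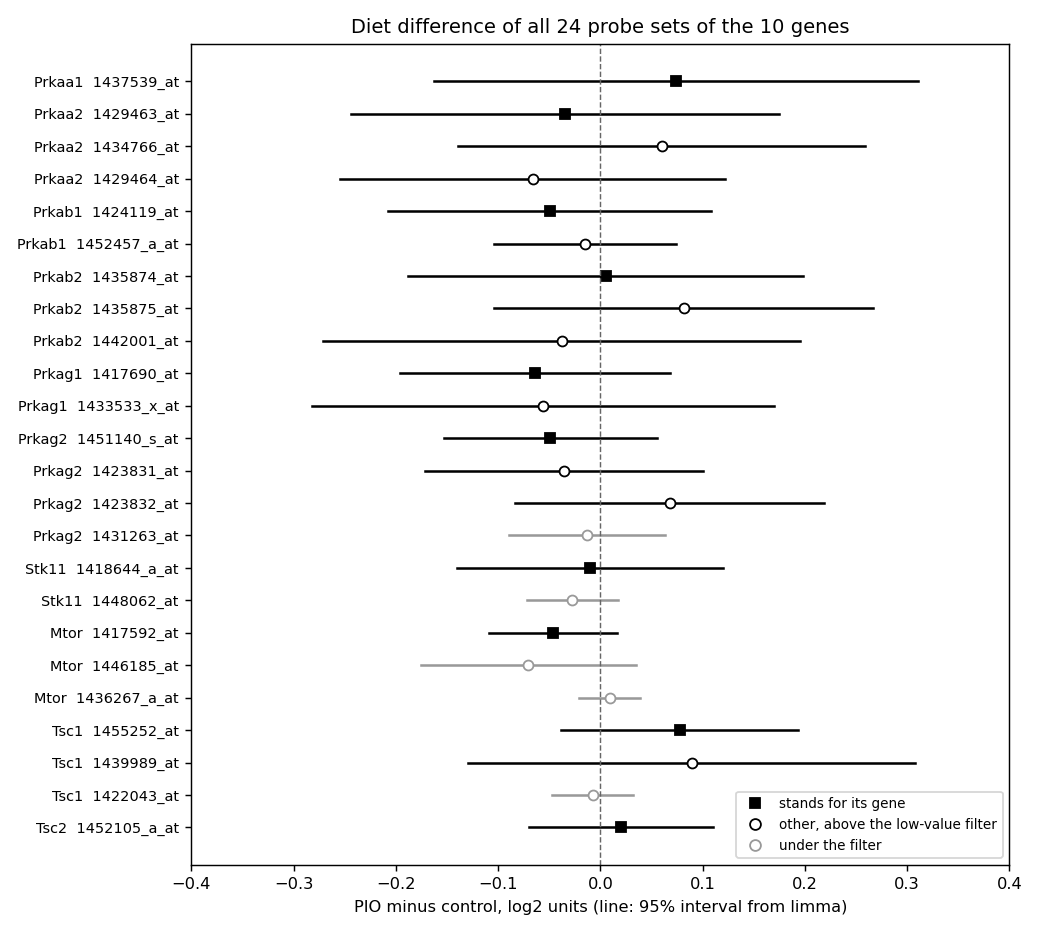
PIO minus control in log2 units for each of the 24 probe sets (marker) with its limma 95% interval (line); squares stand for their gene, open circles are other probe sets, and grey ones are under the low-value filter. Every interval spans 0, and no interval reaches beyond 0.311 in size.

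Probe sets of the same gene mostly followed each other from animal to animal. Among 12 same-gene pairs with both probe sets past the filter, Pearson's r over 16 arrays was positive in 11, with a median of 0.54. Over 18049 such pairs of all genes, 76.5% were positive and the median was 0.31. With probe sets under the filter included, 18 of 21 pairs were positive, with a median of 0.33. The lowest was -0.44, for 1417592_at and 1436267_a_at of Mtor. After adjustment over the 21 pairs tried, 6 passed by permutation of Pearson's r, a test not run for the pairs of all genes. Probe sets 1429463_at and 1434766_at of Prkaa2 gave r = 0.84 (permutation p = 9e-05, adjusted p = 0.00189) and Spearman's rho = 0.86 (permutation p = 7e-05, adjusted p = 0.00147). Their r was 0.78 without the 2 arrays farthest from the median, 0.92 in the largest array batch and 0.82 in arrays 10 to 24. Prkab2 had r = 0.74 between 1435874_at and 1435875_at (permutation p = 0.00138, adjusted p = 0.0145; rho = 0.79, permutation p = 6.1e-04, adjusted p = 0.0064), with 0.69 without the 2 farthest arrays, 0.70 in the largest batch and 0.72 in arrays 10 to 24. The pairs with 1442001_at held less well in arrays 10 to 24. Probe sets 1435874_at and 1442001_at had r = 0.69 (permutation p = 0.00293, adjusted p = 0.019; rho = 0.58, permutation p = 0.0218, adjusted p = 0.0878), and 0.22 in those arrays. For 1435875_at and 1442001_at r was 0.33 (permutation p = 0.212, adjusted p = 0.329; rho = 0.36, permutation p = 0.167, adjusted p = 0.247), and -0.21 in those arrays. For Prkag2, 1451140_s_at and 1423831_at had r = 0.68 (permutation p = 0.00362, adjusted p = 0.019; rho = 0.66, permutation p = 0.00665, adjusted p = 0.0446), with 0.46 without the 2 farthest arrays, 0.74 in the largest batch and 0.61 in arrays 10 to 24.

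Among the pairs past the filter, the probe sets of Prkag1 were the exception. Between 1417690_at and 1433533_x_at r was -0.19 (permutation p = 0.489, adjusted p = 0.541; rho = -0.25, permutation p = 0.356, adjusted p = 0.44), and -0.025 without the 2 farthest arrays. The suffix of 1433533_x_at marks probes that can match other transcripts. Their diet differences were -0.064 (SE 0.062) and -0.056 (SE 0.11). In arrays 10 to 24 alone, the difference of 1417690_at minus that of 1433533_x_at was -0.15 (exact permutation p = 0.362).

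**Figure D3:**
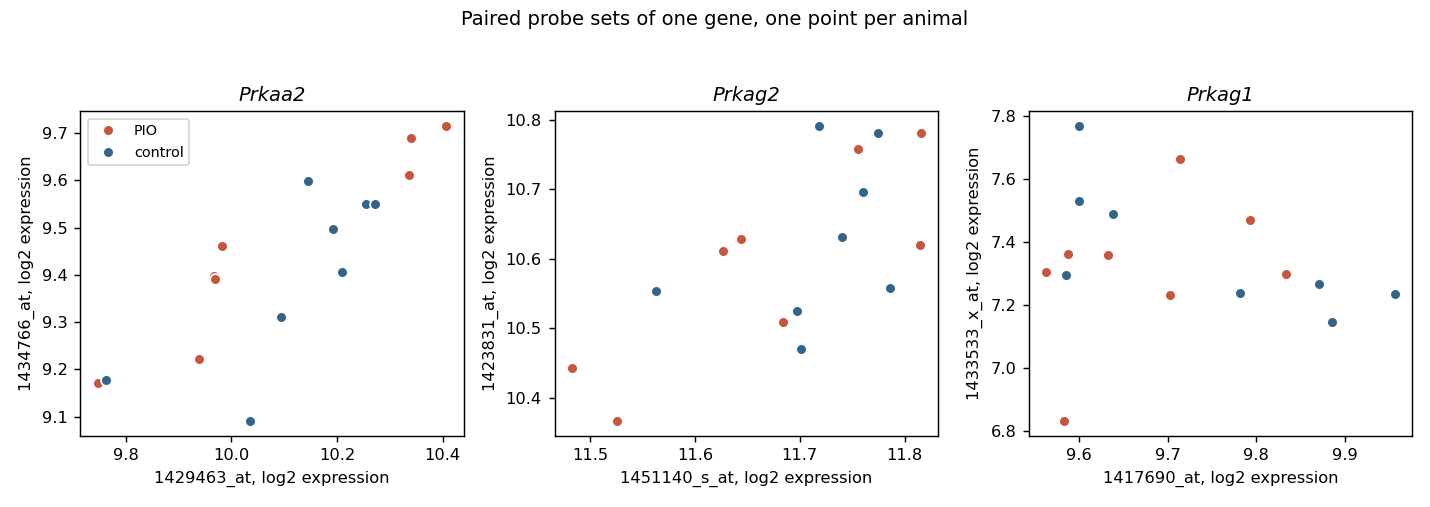
Log2 expression of paired probe sets of Prkaa2, Prkag2 and Prkag1, 1 point per animal, PIO red and control blue. The points rise together for Prkaa2 (r = 0.84) and Prkag2 (r = 0.68) and show no common trend for Prkag1 (r = -0.19).

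Signs of the diet difference were not shared by all probe sets of a gene. Prkaa2 had -0.035, 0.060 and -0.066, Prkab2 had 0.0051, 0.081 and -0.038, and Prkag2 had -0.049, -0.036, 0.068 and -0.013 log2 units. Each is smaller than its SE or close to it. The difference between the diet effects of same-gene probe sets was tested exactly by permutation for the 21 pairs. The smallest p was 0.0884, for 1423831_at against 1423832_at of Prkag2, and the smallest adjusted p was 0.578. In arrays 10 to 24 alone the exact permutation p was 0.0238 for 1429463_at against 1434766_at of Prkaa2, with an adjusted p of 0.388.

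Prkab2 differed more between ranges of array number than between diets. The labels number the arrays without saying what the number stands for, and it runs from 1 to 6 in 2 PIO and 4 control animals and from 10 to 24 in 6 PIO and 4 control animals. For 1435874_at the means were 10.17 in PIO and 10.07 in control animals of arrays 10 to 24, against 10.40 and 10.38 in arrays 1 to 6. The diet-adjusted difference, high minus low numbers, was -0.28 (SE 0.071), with an unadjusted limma p of 0.00139 and an adjusted p of 0.237, so it did not pass over all genes. The other probe sets of Prkab2 had -0.27 (SE 0.067) and -0.30 (SE 0.093). With array batch as a block it was -0.26 for the gene, and with 1 animal left out in turn it ran from -0.30 to -0.24.

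**Figure D4:**
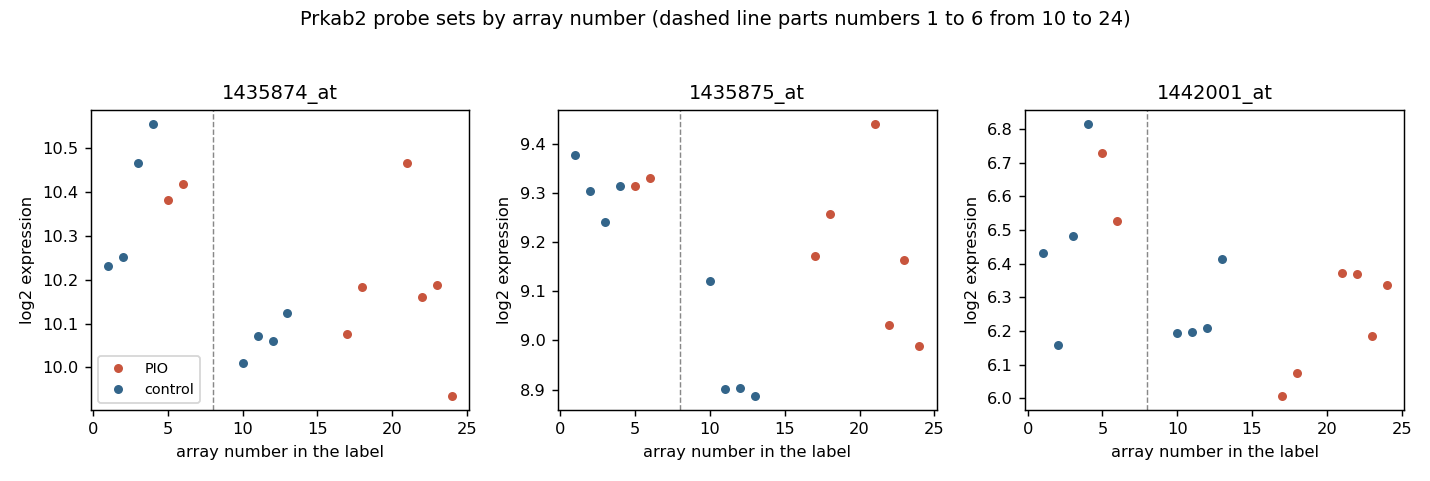
Log2 expression of the 3 probe sets of Prkab2 against the array number in the label, PIO red and control blue; the dashed line parts numbers 1 to 6 from 10 to 24. For 1435874_at the mean of arrays 1 to 6 is 10.38 and that of arrays 10 to 24 is 10.13, and animals of both diets lie on each side.

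Of the 10 genes, 3 had an unadjusted p under 0.05 in that comparison and 0 an adjusted one, against 10.2% and 0.00815% of all genes. Prkag2 left that count in several settings. Its unadjusted limma p was 0.0537 with array batch as a block and 0.0508 without PIO animals 14 and 15. Leaving out single animals gave 0.0701 for control animal 7, 0.0585 for PIO animal 9 and 0.0971 for PIO animal 10. The others were Prkab1 at 0.18 (SE 0.068, limma adjusted p = 0.399) and Prkag2 at -0.11 (SE 0.049, limma adjusted p = 0.438), opposite in direction. The diet difference itself was compared between the ranges by an interaction term. None of the 10 passed, with limma adjusted p from 0.869 to 0.992. An unadjusted p under 0.05 was reached by 0 of the 10, against 6.46% of all genes, and an adjusted one by 0 of the 10, against 0.0245%.

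Beta 1 and gamma 2 also ran opposite to each other between single animals. Among the 45 pairs of the 10 genes, Prkab1 and Prkag2 had the strongest relation, with r = -0.74 (permutation p = 0.00113, adjusted p = 0.0508) and rho = -0.80 (permutation p = 2.8e-04, adjusted p = 0.0126). It was -0.80 without the 2 arrays farthest from the median, -0.74 in the largest array batch and -0.64 in arrays 10 to 24. The median r of the 45 pairs was 0.070, against 0.022 over all pairs of tested genes, and 0 pairs passed by Pearson's r after adjustment. Prkaa2 and Prkag2 had r = -0.59 (permutation p = 0.0153, adjusted p = 0.207; rho = -0.61, permutation p = 0.0138, adjusted p = 0.216) and -0.51 without the 2 farthest arrays. The part of the marker shifts given above in these correlations was not tested.

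Other genes of the pathway were measured in 8 lists, 82 genes in all, and 0 passed limma's adjusted test. An unadjusted p under 0.05 was reached by 5 of the 82, 2 higher and 3 lower, against 3.86% higher and 3.15% lower of all genes. Their median difference was -9.17e-04, against 0.0045 over all genes. Activators and partners of LKB1, with 6 measured, 2 higher and 4 lower, had a median of -0.015 and 0 at an unadjusted p under 0.05. Stradb, an LKB1 pseudokinase partner, was at 10.71 ± 0.16 in PIO animals and 10.58 ± 0.11 in controls (SD, n = 8 each), and Strada at 8.05 ± 0.16 and 8.16 ± 0.19. The 10 AMPK-related kinases, 7 higher and 3 lower, had a median of 0.019 and 0 at that level, with Sik2, a salt-inducible kinase, at a difference of 0.13 (SE 0.088). Among 10 AMPK substrates, 6 higher and 4 lower, there were likewise 0, with Mlycd, which breaks down malonyl-CoA, at 0.060 (SE 0.039) and Tbc1d1, a regulator of glucose transporter traffic, at -0.18 (SE 0.12).

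The partners that make up the mTOR complexes were 4 higher and 4 lower, with 2 of 8 at an unadjusted p under 0.05, both lower. Rptor encodes raptor, which brings substrates to mTORC1. It was at 9.20 ± 0.077 in PIO animals and 9.28 ± 0.065 in controls (SD, n = 8 each), a difference of -0.088 (SE 0.040, limma adjusted p = 0.702). Averaged over all its probe sets past the filter the difference was 0.022, so this value rests on 1434619_at. Prr5l, an mTORC2 component, was at 7.84 ± 0.25 and 8.14 ± 0.27 (SD, n = 8 each), a difference of -0.30 (SE 0.12, limma adjusted p = 0.681). In the largest array batch it was -0.11 (SE 0.10) and in arrays 10 to 24 it was -0.53 (SE 0.14), and without PIO animals 14 and 15 it was -0.20 (SE 0.12). With the myelin marker mean as a covariate it was -0.099 (SE 0.10).

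Amino acid sensing genes, 5 higher and 11 lower, had 1 of 16 at that level. Slc38a9, a lysosomal arginine transporter that signals to mTORC1, ran from 9.38 through 9.47 to 9.56 in PIO animals, against 8.95, 9.23 and 9.51 in controls. Only control animal 2, at 9.51, and control animal 1, at 9.45, reached into the PIO range. The difference was 0.23 (SE 0.069), with an unadjusted limma p of 0.00376 and an adjusted p of 0.589, and it was 0.28 (SE 0.059) in arrays 10 to 24 and 0.12 (SE 0.062) in the largest array batch. Averaged over all probe sets of Slc38a9 past the filter it was 0.028 (SE 0.052), so the value rests on 1436456_at. Sesn1, a leucine-sensing sestrin family member, differed by 0.16 (SE 0.085).

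Genes feeding growth factor signals to TSC had 1 of 8 at that level, and 7 of the 8 were lower in PIO animals. Ddit4l, a relative of the stress-induced mTORC1 inhibitor REDD1, ran from 8.83 through 9.08 to 9.49 in PIO animals, against 9.10, 9.55 and 9.91 in controls. The groups overlapped, with 4 PIO animals below the lowest control, and the difference was -0.34 (SE 0.13, limma adjusted p = 0.681). Akt2, a kinase that inhibits TSC2, differed by -0.13 (SE 0.078). It was -0.037 (SE 0.086) in the largest array batch, -0.25 (SE 0.11) with probe sets of shared sequence left out, and -0.081 without control animal 8. Substrates of mTORC1 and translation factors, 5 higher and 6 lower, had 1 of 11 at that level. It was Grb10, an adaptor stabilised by mTORC1 that dampens insulin signalling, at 10.03 ± 0.22 in PIO animals and 9.84 ± 0.11 in controls (SD, n = 8 each), a difference of 0.19 (SE 0.084, limma adjusted p = 0.702). PIO animals 14 and 15 were highest, at 10.43 and 10.27, and without them the difference was 0.081 (SE 0.060). The 14 genes of Rheb, the Rag GTPases and Ragulator, 9 higher and 5 lower, had a median of 0.019 and 0 at that level, with Lamtor3 at -0.075 (SE 0.045).

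**Figure D5:**
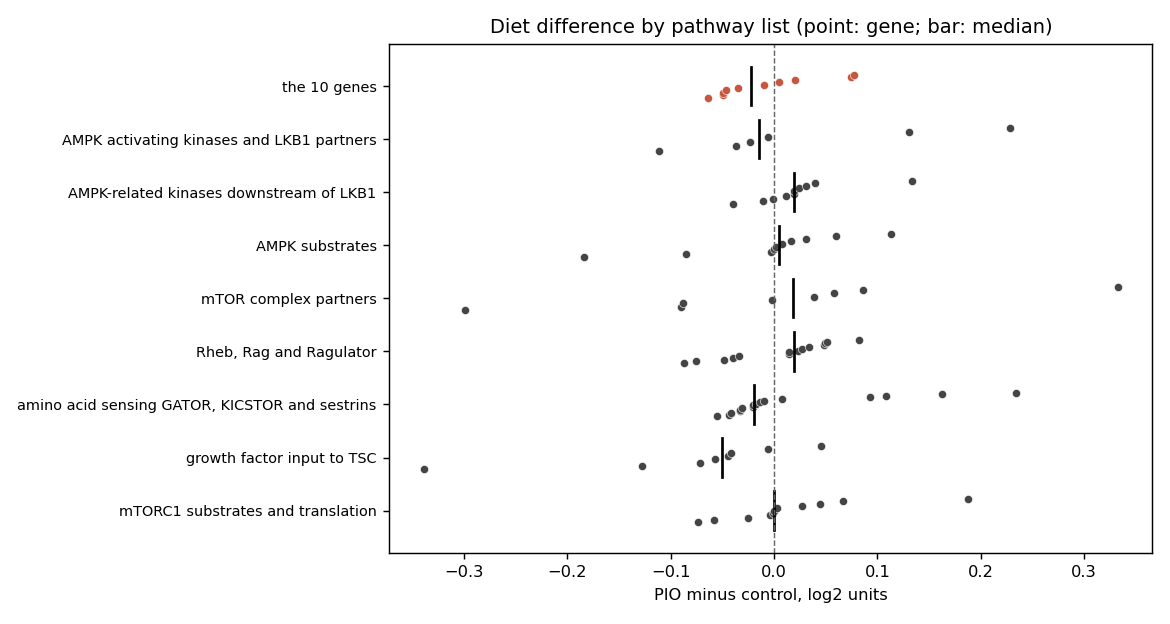
PIO minus control in log2 units for the 10 genes (red) and for 8 lists of other pathway genes (grey), 1 point per gene, with a bar at each median. The 10 genes span -0.064 to 0.077, and the widest points of the lists, -0.34 for Ddit4l and 0.33 for Deptor, named here after its value was seen, did not pass the test.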

How the data were processed

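The deposited values are log2 expression per probe set for 16 arrays, a scale read from their range. The submitters' processing notes name MAS5, GCRMA and R 2.7.1 without a role, so the step that made them is not stated. Log2 values were taken as already normalized. Of 45101 probe sets, 64 array controls were left out, and 34945 of the others had 1 gene symbol, 932 several and 9160 none in the platform annotation. The gene-level fit kept probe sets with a mean above the 40th percentile (3.58) and the highest probe set per gene, 12266 genes. limma 3.58.1 in R 4.3.3 fitted group alone, with Benjamini-Hochberg adjustment over all genes or probe sets. Single values and probe set pairs used exact permutation, and correlations 100000 resamples. The fit was tested on simulated data. Named genes are the 10 members and, of each pathway list, those with the smallest p (up to 3). Members and lists were chosen with earlier results of these data known. Alternatives covered filters, probe set choice, normalization, array batch and number, prior, weights, marker covariates and animals left out. The labels number each animal separately. Array batch is the name given here to a code in the array description, with 6 PIO and 5 control arrays in the largest of 3. The labels do not define that code. Promoter windows are from RefSeq (GRCm38.p6). Protein sequences were not used here.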

Additional observations from a re-analysis of the deposited data

Results flagged for a closer look

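In 7 of 48 groups of 8 animals, 1 animal stood farther from the others than Dixon's critical value for 8 allows. That value flags about 1 in 20 groups that are independent and normally distributed. Each group here was 1 diet on 1 probe set of the genes described, so the groups shared animals and were not independent. The share flagged over all probe sets was not counted, so whether 7 of 48 is unusual for these arrays was not tested. For Prkaa2, control animal 2 was low at 9.76 on 1429463_at, and PIO animal 15 was high at 4.73 on 1429464_at. On 1452457_a_at of Prkab1, PIO animal 14 was high at 6.03 and control animal 7 at 6.13. Control animal 7 was low for Prkag2 at 11.56 on 1451140_s_at. For Tsc1, control animal 5 was high at 6.26 on 1439989_at. PIO animal 12 stood out for Mtor at 1.41 on 1436267_a_at, which is under the low-value filter. The causes were not tested.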

How the results depend on the processing

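No paired analysis was possible because the labels number the animals 1 to 8 and 9 to 16, so the diets share no number. None of the 10 genes passed an adjusted p of 0.05 in limma or the plain two-sample test under any of 17 other settings or with any animal left out; the smallest adjusted p was 0.619. The count of all genes at an unadjusted p under 0.05, 859 here, was 290 in the largest array batch, 514 with the striatal and 548 with the myelin covariate and 517 without PIO animals 14 and 15, and leaving out single animals gave 575 (PIO animal 15) to 1137 (PIO animal 10), while the adjusted count stayed at 0. Over all probe sets the adjusted count was 0 to 1 with 1 animal left out (1 without control animal 2). For array number, the adjusted count, 1 here, was 2 with batch as a block, 2 after quantile normalization, 0 without PIO animals 14 and 15, and 0 to 3 with 1 animal left out, and the unadjusted count 763 to 1532; the last 2 choices were made after seeing the data.

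Some signs changed, also for genes with larger differences: Tsc1 at 0.077, Prkaa1 at 0.074, Sik2 at 0.13, Sesn1 at 0.16 and Rptor at -0.088. In the largest array batch Prkaa1 was at -0.093, Prkag1 at 0.027 and Sesn1 at -0.0026. Stk11 was at 0.026 in arrays 10 to 24, 0.0075 with array weights and 0.0080 with the striatal covariate. Prkag2 was at 0.012 with the striatal covariate, 0.014 with the myelin covariate and 0.0057 without PIO animals 14 and 15. Prkaa2 was at 0.012 with the choroid plexus covariate, and with the myelin covariate Tsc1 was at -0.023 and Sik2 at -0.017. Rptor was at 0.022 with its probe sets averaged. With array number as a block 1442001_at of Prkab2 was at 0.037 and 1423831_at of Prkag2 at 0.013. Mtor was at 0.0055 for array number with batch as a block. With 1 animal left out, 1452457_a_at of Prkab1 ran from -0.037 to 0.019, 1442001_at of Prkab2 from -0.095 to 0.027, 1433533_x_at of Prkag1 from -0.11 to 0.013, 1431263_at of Prkag2 from -0.031 to 0.0011 and 1422043_at of Tsc1 from -0.014 to 0.0054, and for array number Mtor from -0.024 to 0.0025 and Tsc1 from -0.0034 to 0.062. At the gene level Prkab2 ran from -0.029 to 0.053, Stk11 from -0.051 to 0.013 and Prkaa2 from -0.086 to 0.014. The causes were not tested. The filter at the 60th percentile (7.39), the prior and a common median changed no sign of the 10 genes.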
